A study of Mus musculus with 21 samples.

Results

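Gene-body regions lying more than 20 kb and up to 100 kb from the annotated transcription start were followed through capture profiles of DNA methylation in cultured mouse synovial fibroblasts, the stromal cells of the joint lining. They were the rows on chromosomes 1 to 19 that the deposited tables class as gene body and place at that distance from the start. Of the 49307 regions in the 4 tables, 9465 qualified, and they lay in 4189 genes. The Tg197 table at 3 weeks held 2517 of them in 1889 genes, that at 8 weeks 2057 in 1557 genes and that at 11 weeks 1433 in 1161 genes. The table of TNF-treated cells held 3458 in 2416 genes.

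Tg197 mice carry a human TNF transgene and develop a chronic polyarthritis. Their synovial fibroblasts, taken at 3, 8 and 11 weeks of age, were set against fibroblasts of wild-type (WT) mice of the same age, and TNF-treated WT fibroblasts of 8 weeks were set against untreated WT fibroblasts of 8 weeks. Each of the 7 groups had 3 samples, and all 21 came from the strain background CBA x C57BL/6J and were cultured to passages 4 to 5, so the cells had left the joint some passages earlier. The labels give neither the dose and time of TNF, nor the promoter of the transgene, nor the sex of the mice. They do not say whether replicates were separate animals or cultures, so a p-value speaks of the variation among these samples alone, part of which could be technical. The 2 tables of 8 weeks were made with the same WT libraries.

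Methyl groups on CpG cytosines are placed by the Dnmt3 enzymes and copied at DNA replication by Dnmt1. Outside CpG islands most of the mammalian genome is methylated, and the bodies of transcribed genes are methylated along most of their length, in part because Dnmt3b is drawn to the histone mark that elongating RNA polymerase leaves behind. The interior of long genes also holds enhancers and alternative starts, at which methylation tends to be low.

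Capture with a methyl-CpG-binding protein gives more reads where more methylated CpG lie together, so a value follows methylation, CpG content and copy number, which cannot be told apart here, nor can methylation per cell and the share of cells that carry it. The values are reads per region and library, scaled by the authors, and they were not divided by length. Regions were 500 to 2050 bp long with a median of 550 bp. Gained means a higher mean in Tg197 or TNF-treated libraries than in WT libraries, and lost means lower. The tables hold regions that the authors compared and listed, by a rule that is not given in the sources used here, so shares describe the lists and not the genome. Most but not all carry an adjusted p under 0.05 in the authors' deposited table: 2283 of 2517 gene-body regions at 3 weeks, 2017 of 2057 at 8 weeks, 1407 of 1433 at 11 weeks and 3406 of 3458 after TNF. These are 90.7%, 98.1%, 98.2% and 98.5%, beside 90.9%, 98%, 98.5% and 98.2% of all regions. The tests below are therefore mostly retests of regions already called on the same libraries. Within the gene-body regions at 20 to 100 kb recovered reads per library numbered 388223 to 494044 in the table of 3 weeks, 77340 to 166774 in that of 8 weeks, 72949 to 106213 in that of 11 weeks and 119686 to 238255 in that of TNF. TNF-treated libraries 1 and 2 had the same value at all 16898 regions of that table and were counted as a single library, so that 2 TNF-treated libraries stood against 3 untreated ones, except in 1 alternative that kept both.

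The regions went mostly one way at 8 weeks and after TNF, and were more evenly split at 3 and 11 weeks. In Tg197 cells 46.8% were gained at 3 weeks, 29.9% at 8 weeks and 59.6% at 11 weeks, while 22.0% were gained in TNF-treated cells. Among the other autosomal regions the share gained was 42.3% at 3 weeks, 47.7% at 8 weeks, 53.8% at 11 weeks and 34.7% after TNF. The gap between the gene-body regions and the rest was widest in Tg197 cells of 8 weeks, where the gene-body regions were lost more often.

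Direction went with read level. Regions of each table were put in 10 classes by the mean of both group means, from class 1 with the fewest reads to class 10. At 3 weeks 723 of the 764 gene-body regions in the 3 lowest classes were gained in Tg197 cells, which is 94.6%, against 45 of the 661 in the 3 highest classes, which is 6.81%. At 11 weeks the same order held, with 83.3% gained in the lowest and 15.9% in the highest classes. At 8 weeks the order was the other way round, with 7.55% gained in the lowest and 62.6% in the highest classes, and after TNF with 10.3% and 58.3%. Gained regions had a median of 30.1 normalized reads at 3 weeks and lost ones 235, whereas at 8 weeks gained regions had a median of 75.5 and lost ones 20.5.

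**Figure D1:**
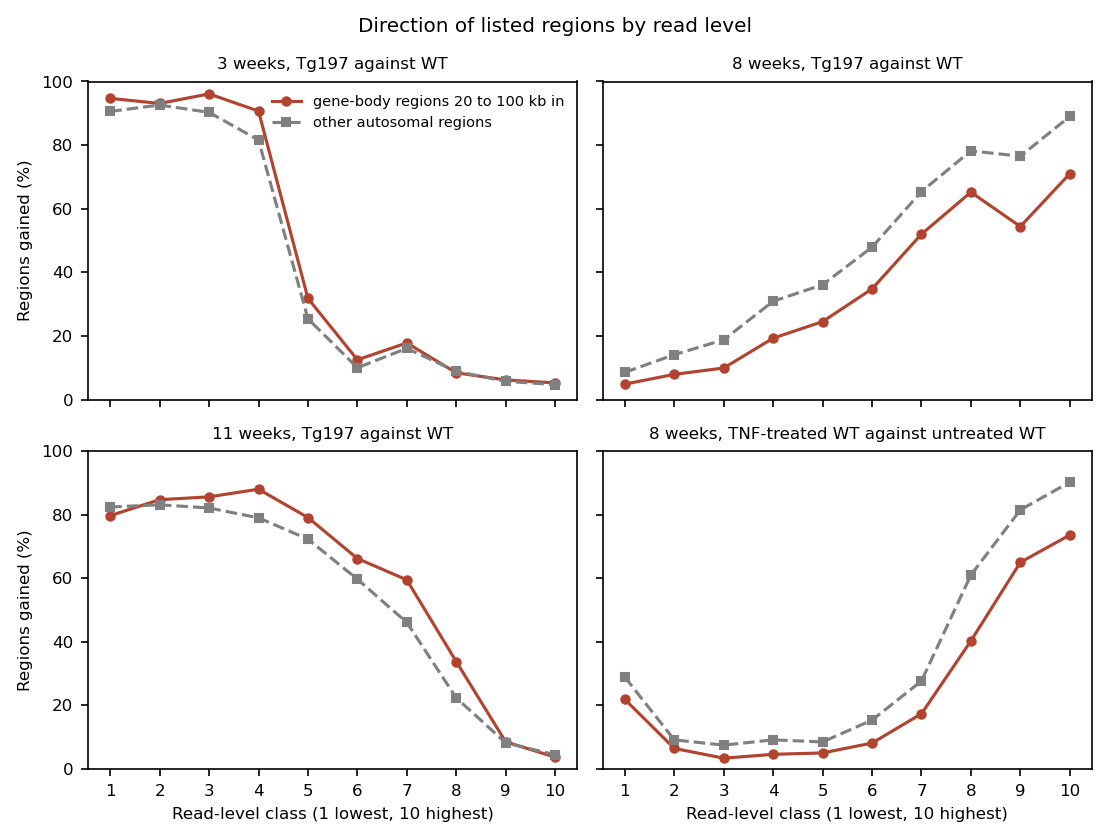
Share of listed regions gained (y axis, %) in each of 10 read-level classes (x axis) for gene-body regions 20 to 100 kb from the start (circles) and for all other autosomal regions (squares), in 4 comparisons. The curves fall with read level in Tg197 cells at 3 and 11 weeks and rise with it at 8 weeks, and at 8 weeks and after TNF the gene-body regions lie below the others in 10 of 10 classes.

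The gap to the other regions was also seen at like read levels. When the other autosomal regions were weighted to the read levels of the gene-body regions, 43.6% were gained at 3 weeks, 41.4% at 8 weeks, 54.6% at 11 weeks and 30.8% after TNF, against 46.8%, 29.9%, 59.6% and 22.0% of the gene-body regions themselves. At 8 weeks the share gained in gene bodies was lower in 10 of 10 classes, by 3.7 to 22 percentage points, and after TNF likewise by 2.7 to 20.7 points. At 3 weeks it was higher in 9 of 10 classes and at 11 weeks in 8 of 10. Of the 8929 other autosomal regions at 8 weeks 5640 were intergenic. The gap was not particular to this distance. Gene-body regions at 3 to 20 kb had 24.9% gained at 8 weeks, against 43.1% of the remaining regions at like levels, and 17.3% against 30.4% after TNF. Those beyond 100 kb went the other way, with 44.3% against 41.7% and 36.2% against 31.9%. Regions are not replicates of a condition, and these shares carry no test.

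Single libraries showed the link between direction and read level within the gene-body regions. Taken as log2 ratios to the mean of WT, the medians of the 3 lowest classes were 1.03, 1.07 and 1.08 in the Tg197 libraries of 3 weeks, and 1.14, 1.10 and 1.87 in those of 11 weeks. In those of 8 weeks they were -1.81, -1.37 and -1.86, and in the TNF-treated libraries -1.60 and -1.77. No WT library left the range from -0.37 to 0.18, but WT libraries are held near 0 because the ratios were taken to their own mean. In the 3 highest classes Tg197 libraries of 8 weeks stood at 0.34, -0.01 and 0.21, and the second library, at -0.01, had the most recovered reads of its group. WT library 1 of 11 weeks stood at 0.36 in the highest classes, above the other WT libraries at -0.15 and -0.28. Without Tg197 library 2 of 8 weeks 29.9% of the regions were gained, and without WT library 1 of 11 weeks 59.9%. These shares could move little. The groups did not overlap at 1594 of the 2057 and 1203 of the 1433 regions, where leaving out a library cannot change the direction.

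**Figure D2:**
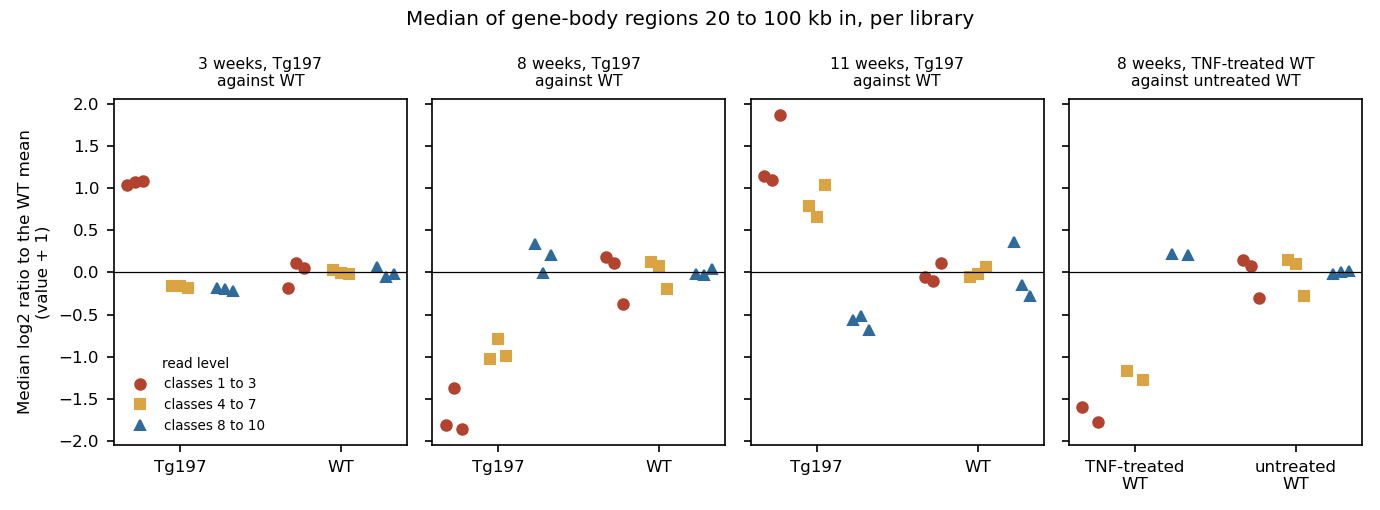
Median log2 ratio of each library to the WT mean (y axis, on values plus 1) over gene-body regions 20 to 100 kb from the start, by read level, 1 point per library. Low-level regions lie above 1 in every Tg197 library of 3 and 11 weeks and below -1.3 in every Tg197 library of 8 weeks and every TNF-treated library.

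The 3-week comparison addressed early disease. The test was limma on log2(value + 1) over all regions of a table, with Benjamini-Hochberg adjusted p under 0.05. In Tg197 cells 2160 of the 2517 gene-body regions passed, 1102 of them higher and 1058 lower, where 85.0% of all regions of the table passed, 40.3% higher and 44.7% lower. With libraries scaled to the same autosomal total the split was 1158 higher and 527 lower, and this scaling moved the median log2 fold of all regions by 0.11. Of the 2517 regions 970 (38.5%) carry a p in the authors' deposited table that is more than 10-fold under what their recovered reads allow, beside 37.2% of all regions. Without these 970 the test passed 1037 higher and 388 lower and the share gained was 68.1%. The groups did not overlap at 2216 of the 2517 regions, where 86.1% of all regions had this property. The median log2 fold was -0.08, against -0.12 over all regions. Changes of at least 2-fold were nearly all gains, with 556 higher and 32 lower. The same held over all 13125 regions of the table, with 2781 higher and 320 lower. Of the 32 losses among the gene-body regions 6 lay on chromosome 9, which is 18.8%, while 6.71% of the gene-body regions lay there.

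The largest gain at 3 weeks was in Tbx20, a T-box factor of heart development (chromosome 9, 24541751 to 24542650, 36.5 kb from the start). It had 28.1, 31.1 and 37.6 normalized reads in Tg197 libraries, against 3.76, 5.43 and 6.82 in WT libraries. The groups did not overlap, and the log2 fold was 2.41 (standard error, SE, 0.32, limma adjusted p = 0.000635). Jak1, the kinase through which many cytokine receptors signal, gained a region 85.9 kb from its start, with 17.3, 20.7 and 19.8 reads in Tg197 libraries, against 11.3, 3.62 and 1.14 in WT libraries. Its log2 fold was 2.03 (SE 0.49, limma adjusted p = 0.0025). Gak, a kinase of clathrin uncoating, averaged 26.7 ± 2.63 in Tg197 and 8.39 ± 7.27 in WT libraries, and Ttll11, a tubulin-modifying ligase, 20 ± 0.674 and 5.43 ± 5.93 (SD, n = 3 each). In Gak and Ttll11 the WT spread came from 1 library listed at 0.

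Fat3, an atypical cadherin, held the largest loss (chromosome 9, 16142551 to 16143100). Its region had 9.72, 13.2 and 0.99 reads in Tg197 libraries, against 27.2, 38.9 and 37.5 in WT libraries. The log2 fold was -2.39 (SE 0.53, limma adjusted p = 0.00208). Gria4, an AMPA receptor subunit on the same chromosome, averaged 24.3 ± 21.7 in Tg197 and 61.6 ± 6.34 in WT libraries. The third Tg197 library was the lowest at both genes. Epb4.1l4a, a FERM-domain protein, averaged 11.2 ± 5.72 in Tg197 and 33.4 ± 3.89 in WT libraries. Fam47e averaged 4.78 ± 2.47 in Tg197 and 16.4 ± 2.98 in WT libraries (SD, n = 3 each).

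The 8-week comparison addressed established disease, and losses of low-level regions led. In Tg197 cells 1270 of the 2057 gene-body regions passed limma, 249 higher and 1021 lower, where 54.0% of all regions of the table passed, 17.4% higher and 36.6% lower. Scaling to the same autosomal total gave 96 higher and 1169 lower and moved the median of all regions by -0.17. Values did not overlap between groups at 1594 of the 2057 regions, beside 69.6% of all regions. The median log2 fold was -1.09, against -0.22 over all regions, and changes of at least 2-fold numbered 116 higher and 871 lower. Over all 11975 regions of the table such changes numbered 961 higher and 3756 lower. Of the 116 gains 19 lay on chromosome 12, which is 16.4%, while 5.44% of the gene-body regions lay there. Leaving out Tg197 library 1 or 3, or WT library 1 or 2, ended every call in limma (1334, 1199, 882 and 868 regions then had an unadjusted p under 0.05), whereas 1475 passed without Tg197 library 2 and 1003 without WT library 3. With a pseudocount of 0.1 limma called 0 (1413 at an unadjusted p under 0.05), and limma voom on recovered reads, with all libraries, called 1152.

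Tep1, a telomerase-associated protein, held the largest loss at 8 weeks (chromosome 14, 51443851 to 51444550). Its region had 0, 0.69 and 0 reads in Tg197 libraries, against 22.0, 15.0 and 11.1 in WT libraries. The log2 fold was -3.78 (SE 0.50, limma adjusted p = 0.0428). Hc, which encodes complement component C5, had 0, 2.77 and 0 reads in Tg197 libraries at a region 42.6 kb from the start, against 24.5, 19.5 and 13.3 in WT libraries (log2 fold -3.65, SE 0.65, limma adjusted p = 0.0428). Daam2, a formin of Wnt signalling, averaged 1.61 ± 2.79 in Tg197 and 24.6 ± 14.2 in WT libraries. Angpt1, the ligand that stabilizes vessels through the receptor Tek, averaged 0.883 ± 1.53 in Tg197 and 18.7 ± 9.55 in WT libraries. At these 4 regions the groups did not overlap.

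Gains at 8 weeks were led by Ccdc6, a gene often fused to Ret in thyroid tumours, with 27.8, 9.69 and 27.9 reads in Tg197 libraries at a region 62.6 kb from its start, against 5.07, 1.5 and 0 in WT libraries. Its log2 fold was 3.07 (SE 0.77, limma adjusted p = 0.0428). Pxdn, the peroxidase that crosslinks collagen IV, had 15.9, 18 and 11.8 reads in Tg197 libraries, against 1.69, 1.5 and 2.21 in WT libraries. Cd47, the surface signal that restrains phagocytes, averaged 57.6 ± 14.6 in Tg197 and 12.5 ± 13.2 in WT libraries. Oprm1, the mu opioid receptor, averaged 10.8 ± 2.18 in Tg197 and 1.11 ± 1.92 in WT libraries (SD, n = 3 each).

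The 11-week comparison addressed late disease, and gains prevailed. In Tg197 cells 1111 of the 1433 gene-body regions passed limma, 777 higher and 334 lower, where 77.9% of all regions of the table passed, 49.7% higher and 28.2% lower. Scaling to the same autosomal total gave 822 higher and 140 lower and moved the median of all regions by 0.22. Values did not overlap between groups at 1203 of the 1433 regions, beside 83.7% of all regions. The median log2 fold was 0.85, against 0.76 over all regions, and 565 regions were at least 2-fold higher and 132 at least 2-fold lower. Of the 132 losses 25 lay on chromosome 9, which is 18.9%, and 21 on each of chromosomes 1 and 11, which is 15.9% each, while 7.75%, 7.89% and 7.68% of the gene-body regions lay on these chromosomes. The gene Sfi1 on chromosome 11 held 12 regions at 11 weeks, nearly all lost, but not all of its losses passed limma. How far losses that lie close together make up these chromosome shares was not tested. No region passed without WT library 2 or without Tg197 library 3 (987 and 899 had an unadjusted p under 0.05) and 1 passed without Tg197 library 1, while voom on recovered reads called 996.

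Lgr4, a receptor for R-spondins, the enhancers of Wnt signalling, held the largest gain at 11 weeks (chromosome 2, 109806101 to 109806750). It had 9.57, 11.45 and 22.4 reads in Tg197 libraries, against 0, 0 and 1.95 in WT libraries. The log2 fold was 3.34 (SE 0.76, limma adjusted p = 0.0219). Sfrs2ip, a splicing-associated protein now named Scaf11, averaged 15.3 ± 3.29 in Tg197 and 0.96 ± 0.975 in WT libraries. Prkg1, a cGMP-dependent kinase, averaged 14.9 ± 7.97 in Tg197 and 1.87 ± 2.45 in WT libraries, and Clmn, the actin-binding protein calmin, 14.6 ± 2.35 and 1.61 ± 2.04 (SD, n = 3 each). The third Tg197 library was the highest of its group at all 4.

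Pign, an enzyme of GPI anchor synthesis, had 9.57, 0 and 1.72 reads in Tg197 libraries at 11 weeks, against 38.1, 12.1 and 20.5 in WT libraries (log2 fold -2.86, SE 0.83, limma adjusted p = 0.0219). Sorl1, a sorting receptor, had 1.6, 4.58 and 3.45 reads in Tg197 libraries, against 20.4, 31.6 and 28.3 in WT libraries (log2 fold -2.77, SE 0.46, limma adjusted p = 0.0219). The groups lay apart at both. Sdccag8, a centrosome protein, averaged 7.96 ± 5.62 in Tg197 and 43.0 ± 15.4 in WT libraries, and Trip12, a ubiquitin ligase, 6.17 ± 5.75 and 33.2 ± 8.96 (SD, n = 3 each).

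After TNF 3238 of the 3458 gene-body regions passed limma, 636 higher and 2602 lower, where 93.8% of all regions of the table passed, 29.8% higher and 64.1% lower. Scaling to the same autosomal total gave 188 higher and 2673 lower and moved the median of all regions by -0.26. Values did not overlap between groups at 3302 of the 3458 regions, beside 95.8% of all regions. The median log2 fold was -1.19, against -1.08 over all regions, and 165 regions were at least 2-fold higher and 2132 at least 2-fold lower. Of the 3458 regions 856 (24.8%) carry a p in the authors' deposited table that is more than 10-fold under what their recovered reads allow, beside 24.3% of all regions. Among the 856 are regions of Lrguk, Nebl, Ptcd2, Ctnna2, Col4a1, Itga11, Cdk6, Slit3 and Hc named here.

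Lrguk held the largest loss after TNF (chromosome 6, 34072551 to 34073500). It had 1.99 and 0 reads in TNF-treated libraries, against 18.8, 22.8 and 16 in untreated WT libraries (log2 fold -3.53, SE 0.57, limma adjusted p = 0.0109). Sh3pxd2a, the scaffold of podosomes and invadopodia, had 0 and 2.48 reads in TNF-treated libraries, against 13.7, 15.2 and 33.2 in untreated WT libraries (log2 fold -3.43, SE 0.65, limma adjusted p = 0.0109). Ppp3ca, the catalytic subunit of calcineurin, averaged 1.5 ± 2.11 in TNF-treated (n = 2) and 19.9 ± 8.87 in untreated WT libraries (SD, n = 3). Prtg, a cell-surface protein of the early embryo, averaged 1.99 ± 2.81 and 23.8 ± 14.7. The groups lay apart at all 4.

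Qpct, which encodes glutaminyl cyclase, the enzyme that modifies the amino end of some chemokines, held the largest gain after TNF. It had 31.9 and 141 reads in TNF-treated libraries, against 3.42, 3.05 and 1.23 in untreated WT libraries (log2 fold 4.32, SE 0.63, limma adjusted p = 0.0109). The 2 treated libraries differed from each other more than 4-fold there. Nebl, an actin-binding protein of muscle, had 9.95 and 11.2 reads in TNF-treated libraries, against 0, 1.52 and 0 in untreated WT libraries. Ptcd2, a mitochondrial RNA-binding protein, averaged 11.1 ± 0.148 in TNF-treated and 1.05 ± 1.16 in untreated WT libraries, and Ctnna2, a neural alpha-catenin, 14.7 ± 3.2 and 2.14 ± 2.51 (SD, n = 2 and n = 3).

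**Figure D3:**
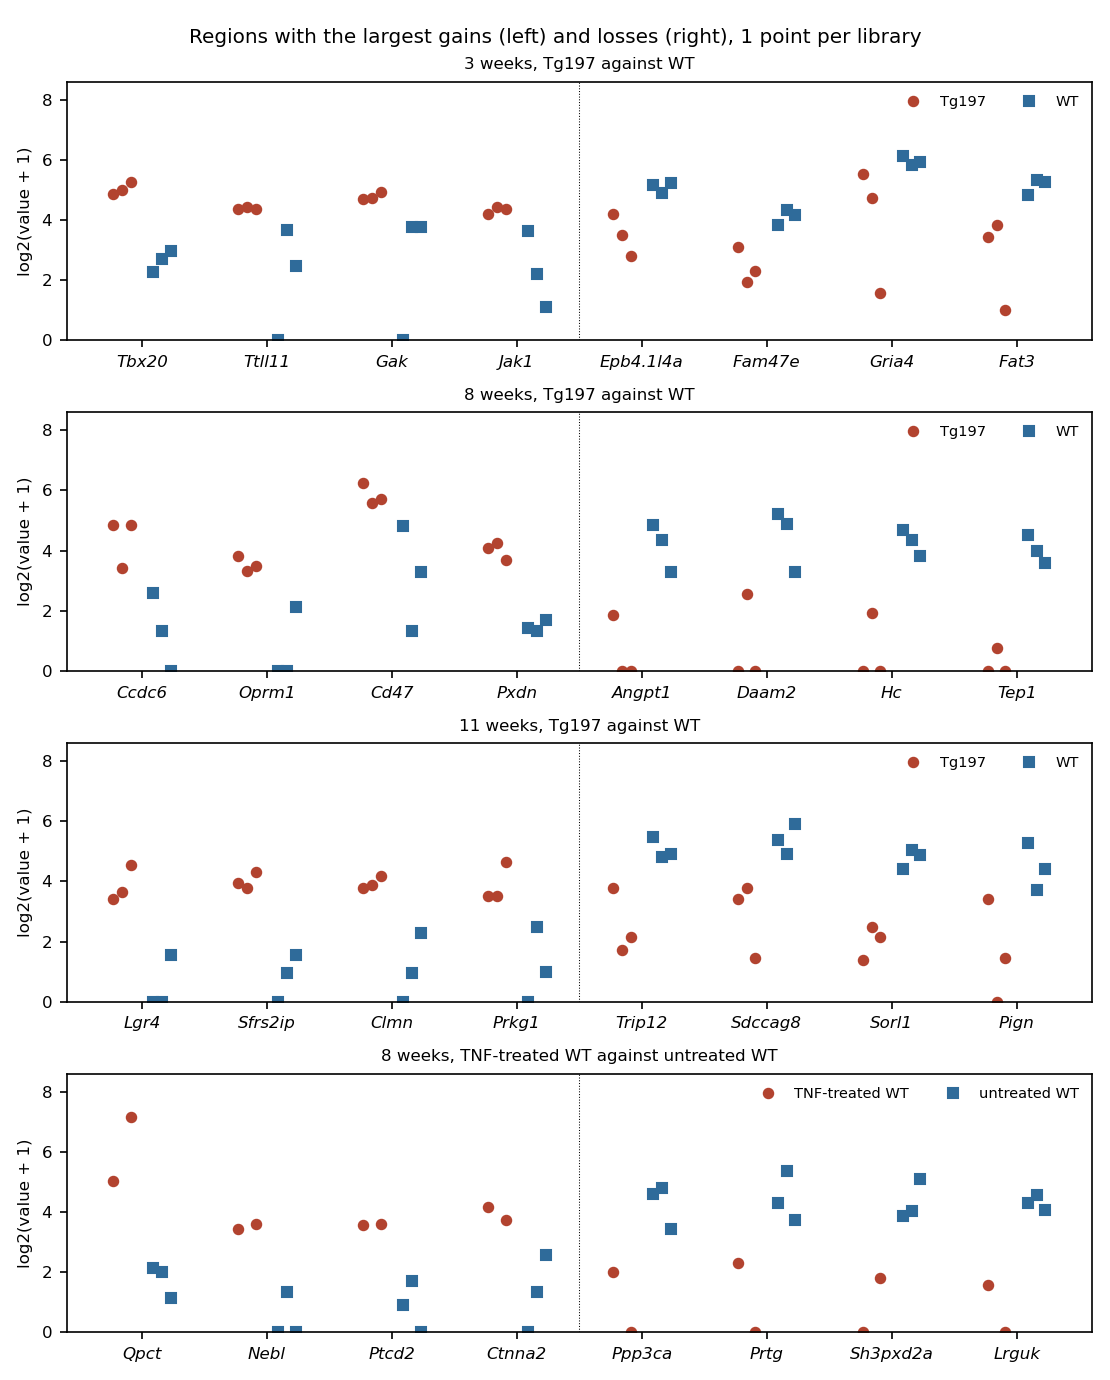
Values of the regions with the 4 largest gains (left of the dotted line) and the 4 largest losses (right) in each comparison, as log2(value + 1) on the y axis, 1 point per library, with Tg197 or TNF-treated libraries to the left of WT libraries. The groups lie apart at each region, and the low group often includes a library at 0.

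Genes with several listed regions showed how direction and level went together within 1 gene. At 3 weeks 458 genes had 2 or more regions, of which 106 had only gains, 116 only losses and 236 both. In 208 of these 236 mixed genes the gained regions had the lower mean read level. At 11 weeks 197 genes had 2 or more, with 72 only gained, 35 only lost and 90 mixed, and in 81 of the 90 the gained regions had the lower level. At 8 weeks 352 genes had 45, 196 and 111, and in 86 of the 111 mixed genes the gained regions had the higher level. After TNF 694 genes had 36, 433 and 225, and in 176 of the 225 the gained regions had the higher level.

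Cdc42bpb, a kinase that acts below Cdc42 on actomyosin, had the most regions of the 165 genes present in all 4 tables, 23 in all. At 3 weeks it had 8, of which 3 passed lower, 1 passed higher and 4 did not pass. The higher one, 55.4 kb from the start, averaged 61.5 ± 8.17 in Tg197 and 36.2 ± 5.33 in WT libraries (SD, n = 3 each), whereas the lower one 59.5 kb from the start averaged 246 ± 13.6 in Tg197 and 307 ± 22.8 in WT libraries. Scaled to the same autosomal total, lost regions of this gene that had not passed came out at or above 0. At 11 weeks 2 of its 4 regions passed higher, with 22.6 ± 14.8 in Tg197 and 6.54 ± 1.77 in WT libraries at the region 50.8 kb from the start. After TNF all 4 of its regions passed lower.

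The gene 4933407C03Rik, whose transcript is now named Cmip, a signalling adaptor of lymphocytes, had 9 regions after TNF and all 9 passed lower, with log2 folds from -2.01 to -1.11. Its 3 regions at 8 weeks were all lost in Tg197 cells, and 2 of them passed. Galnt10, an enzyme that starts mucin-type O-glycosylation, had the most regions at 8 weeks, 9 in all. Of these 8 were lost and 1, 40.2 kb from the start, was gained, with 44.4 ± 6.04 in Tg197 and 24.1 ± 1.73 in WT libraries (SD, n = 3 each). Ube4b, a ubiquitin chain elongation factor, had 8 regions after TNF, of which 6 passed lower and 2 higher, and both higher ones had more than 80 reads in every library.

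Sfi1, a centrosome protein, had the most regions at 11 weeks, 12 in all, and 11 were lost. WT library 1 was the highest of the 3 WT libraries at each of these 11, and 6 of the 11 passed limma. At the region 24.8 kb from the start Tg197 libraries had 94.1, 64.1 and 38.8 reads, against 264, 114 and 121 in WT libraries (log2 fold -1.30, SE 0.40, limma adjusted p = 0.0219). Stk39, a kinase that controls ion cotransporters, had 6 regions at 11 weeks, of which 3 passed higher and 2 lower. Accn1, the acid-sensing channel subunit now named Asic2, had 5, of which 3 passed higher and 2 lower.

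The regions were counted in 11 pathway lists, and each count is to be read beside the shares over all regions of its table. These were 40.3% higher and 44.7% lower at 3 weeks, 17.4% and 36.6% at 8 weeks, 49.7% and 28.2% at 11 weeks, and 29.8% and 64.1% after TNF. Among the gene-body regions at 20 to 100 kb they were 43.8% and 42%, 12.1% and 49.6%, 54.2% and 23.3%, and 18.4% and 75.2%. The lists hold gene-body regions of this class only. Their median log2 folds are therefore also to be read beside those of the whole class, which were -0.08, -1.09, 0.85 and -1.19. In genes of TNF and NF-kB signalling all 11 regions passed lower after TNF, when 64.1% of all regions and 75.2% of the gene-body regions did. They included Traf2, an adaptor of TNF receptors, with 61.7 and 58.3 reads in TNF-treated libraries, against 93.3, 96.0 and 98.3 in untreated WT libraries (log2 fold -0.67, SE 0.16, limma adjusted p = 0.0109). Mapk14, the stress kinase p38, averaged 3.11 ± 2.64 in TNF-treated (n = 2) and 13.5 ± 1.11 in untreated WT libraries (SD, n = 3). With Tg197 against WT, 3 of the 10 regions of this list passed higher and 6 lower at 3 weeks, 0 and 4 of 9 at 8 weeks, and 2 and 3 of 5 at 11 weeks. The median of the list was -1.35 after TNF, against -1.08 over all regions. Direction went with read level, and the lists differed in it. At 3 weeks median levels were 27.2 in limb factors, 33.0 in cytokine, 37.9 in neuronal adhesion and 46.2 in protease genes. Integrin genes had 58.0, matrix genes 65.1, TNF and NF-kB genes 142 and arthritis risk genes 159. TGF-beta genes had 164, Wnt genes 165 and chromatin regulators 168, against 160 over the whole class. List medians were not tested apart from read level.

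Members of the TNF and NF-kB list differed between ages. Nfkb1, the p105 and p50 subunit of NF-kB, passed higher at 3 weeks with 119 ± 9.21 in Tg197 and 77.5 ± 7.33 in WT libraries (SD, n = 3 each). At 8 weeks Tnip1, an inhibitor of NF-kB, passed lower with 3.48 ± 1.19 in Tg197 and 17.6 ± 3.95 in WT libraries, and Ikbkb, the kinase that frees NF-kB, with 90.6 ± 15.0 and 148 ± 3.82. Tnfrsf11a, or RANK, the receptor that drives osteoclast formation, passed lower at 3 weeks (95.9 ± 3.11 in Tg197 and 149 ± 19.2 in WT libraries), and Tnfsf11, or RANKL, its ligand, passed lower at 11 weeks (5.44 ± 2.03 in Tg197 and 16.6 ± 2.63 in WT libraries). Map3k14, the NF-kB-inducing kinase, passed lower at 11 weeks with 13.5 ± 2.55 in Tg197 and 30.9 ± 3.2 in WT libraries.

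Of the regions in cytokine, chemokine and receptor genes, 8 passed higher and 3 lower of 11 in Tg197 cells at 3 weeks, 0 and 4 of 7 at 8 weeks and 2 and 0 of 2 at 11 weeks. After TNF 0 and 9 of 10 did. The median log2 folds of this list were 0.85, -1.78, 1.36 and -1.16, against -0.12, -0.22, 0.76 and -1.08 over all regions. Il1r1, the interleukin-1 receptor, passed higher at 3 weeks with 162 ± 4.01 in Tg197 and 114 ± 11.8 in WT libraries. Osmr, the oncostatin M receptor, passed lower at 8 weeks with 6.85 ± 3.88 and 25.3 ± 13.3, and Stat5b, a transcription factor of cytokine receptors, passed higher at 11 weeks with 25.3 ± 3.14 and 10.4 ± 5.94 (SD, n = 3 each). After TNF Stat3, which acts below interleukin-6, passed lower and averaged 21.4 ± 2.16 in TNF-treated (n = 2) and 46.0 ± 8.3 in untreated WT libraries (SD, n = 3).

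Extracellular matrix genes had 26 regions at 3 weeks, of which 15 passed higher and 8 lower, 20 at 8 weeks with 2 and 12, and 27 at 11 weeks with 17 and 6. After TNF they had 37, with 7 and 27. Their medians were 0.72, -1.19, 0.82 and -1.14, against -0.12, -0.22, 0.76 and -1.08 over all regions. Col4a1 and Col4a2, the paired collagen chains of basement membranes, passed higher at 3 weeks, with 88.2 ± 7.5 in Tg197 and 54.8 ± 5.12 in WT libraries for Col4a1 and 72.8 ± 14.0 and 39.1 ± 5.89 for Col4a2. After TNF a Col4a1 region passed lower, with 1.99 and 3.72 reads in TNF-treated libraries, against 20.6, 14.5 and 17.2 in untreated WT libraries. Lama1, a laminin chain, and Fbln1, a fibulin, passed lower at 8 weeks with 7.39 ± 4.41 and 25.1 ± 3.51 in Tg197 libraries, against 28.2 ± 8.29 and 50 ± 0.675 in WT libraries. Smoc2, a matrix protein that binds calcium, passed lower at 11 weeks with 55.5 ± 14.5 in Tg197 and 116 ± 11.7 in WT libraries (SD, n = 3 each), and Col16a1, a fibril-associated collagen, after TNF with 33.0 ± 1.14 in TNF-treated (n = 2) and 69.7 ± 7.69 in untreated WT libraries.

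Matrix proteases and inhibitors had 13 regions at 3 weeks (6 passed higher, 5 lower), 12 at 8 weeks (0 and 8), 11 at 11 weeks (5 and 3) and 18 after TNF (3 and 15). Medians were -0.1, -1.67, 0.18 and -1.22, with the same values over all regions as above. Procollagen N-proteinases were among the losses. Adamts14 had 5.3, 12.5 and 8.83 reads in Tg197 libraries of 8 weeks, against 49.9, 61.4 and 21.0 in WT libraries (log2 fold -2.13, SE 0.51, limma adjusted p = 0.0428). Another region of Adamts14 averaged 33.2 ± 5.93 in Tg197 and 63.3 ± 11.4 in WT libraries at 11 weeks, and a region of Adamts2 averaged 72.9 ± 11.0 and 158 ± 64.0 there. Adamts3 passed lower after TNF, with 8.57 ± 3.36 in TNF-treated (n = 2) and 28.5 ± 4.52 in untreated WT libraries (SD, n = 3). At 3 weeks Adamts13, which cleaves von Willebrand factor, passed higher with 61.0 ± 1.1 in Tg197 and 31.4 ± 8.06 in WT libraries.

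Integrin, focal adhesion and actin genes had 24 regions at 3 weeks (13 passed higher, 7 lower), 24 at 8 weeks (2 and 14), 15 at 11 weeks (11 and 3) and 39 after TNF (4 and 31). Over all regions 40.3% passed higher and 44.7% lower at 3 weeks, and 17.4% and 36.6% at 8 weeks, and the medians of the list were 0.53, -1.21, 1.2 and -1.26, against -0.12, -0.22, 0.76 and -1.08. Tln1, the talin that activates integrins, passed higher at 3 weeks with 88.6 ± 17.3 in Tg197 and 52.4 ± 1.2 in WT libraries. Itgb6, an integrin of epithelia that activates latent TGF-beta, passed lower at 8 weeks with 2.81 ± 1.41 and 15.7 ± 5.09, and Myh9, a non-muscle myosin, passed higher at 11 weeks with 14.4 ± 1.59 and 3.14 ± 0.662 (SD, n = 3 each). Itga11, a collagen receptor of fibroblasts, passed lower after TNF with 12.9 and 11.2 reads in TNF-treated libraries, against 34.2, 30.5 and 34.4 in untreated WT libraries.

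Wnt signalling genes had 27 regions at 3 weeks (9 passed higher, 13 lower), 21 at 8 weeks (1 and 14), 14 at 11 weeks (8 and 4) and 41 after TNF (6 and 29). Beside them stand 40.3% higher and 44.7% lower of all regions at 3 weeks, 17.4% and 36.6% at 8 weeks, and 29.8% and 64.1% after TNF, and medians of -0.1, -1.52, 0.96 and -1.19, against -0.12, -0.22, 0.76 and -1.08 over all regions. Nfatc2, a factor that calcineurin brings to the nucleus, passed higher at 3 weeks with 29.2 ± 10.1 in Tg197 and 8.38 ± 2.93 in WT libraries, and another of its regions passed lower at 8 weeks with 8.34 ± 4.77 and 33.5 ± 8.91. Lrp5, a Wnt coreceptor, averaged 77.9 ± 15.3 in Tg197 and 142 ± 14.9 in WT libraries at 8 weeks, and Lrp6, another, averaged 8.2 ± 1.07 in TNF-treated (n = 2) and 26.3 ± 4.89 in untreated WT libraries (SD, n = 3). Tcf7l1, a repressor of Wnt targets, passed higher at 11 weeks with 31.9 ± 2.15 in Tg197 and 13.3 ± 4.75 in WT libraries.

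TGF-beta and BMP signalling genes had 16 regions at 3 weeks (4 passed higher, 10 lower), 13 at 8 weeks (4 and 8), 12 at 11 weeks (8 and 0) and 21 after TNF (4 and 16). The list had medians of -0.22, -0.85, 1.04 and -1.45, against -0.12, -0.22, 0.76 and -1.08 over all regions. Smurf1, a ubiquitin ligase of Smad proteins, passed lower at 3 weeks with 55.4 ± 6.97 in Tg197 and 96.0 ± 9.55 in WT libraries. At 8 weeks the activin receptor Acvr2b and the BMP effector Smad9 passed lower, with 3.25 ± 0.796 and 3.9 ± 1.24 in Tg197 libraries, against 18.8 ± 10.1 and 18.7 ± 6.21 in WT libraries. At 11 weeks Ltbp1, which holds latent TGF-beta in the matrix, had 64.6, 51.5 and 74.1 reads in Tg197 libraries, against 4.08, 18.6 and 29.2 in WT libraries (log2 fold 2.14, SE 0.57, limma adjusted p = 0.0219). After TNF another region of Ltbp1 passed lower with 11.9 ± 2.84 in TNF-treated (n = 2) and 38.5 ± 9.71 in untreated WT libraries (SD, n = 3).

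Transcription factors of limb and skeleton had 13 regions at 3 weeks (8 passed higher, 4 lower), 17 at 8 weeks (3 and 8), 16 at 11 weeks (12 and 1) and 20 after TNF (5 and 15). Its medians were 0.87, -1.24, 0.91 and -1.19, against -0.12, -0.22, 0.76 and -1.08 over all regions. Ebf1, a factor of B cells and of stroma, passed higher at 3 weeks with 26.5 ± 8.37 in Tg197 and 9.11 ± 1.19 in WT libraries. Zfhx3, a large homeobox factor, passed higher at 8 weeks with 43.0 ± 9.92 in Tg197 and 15.7 ± 4.62 in WT libraries. Gli2, an effector of Hedgehog signalling, passed higher at 11 weeks with 47.8 ± 6.99 in Tg197 and 21.8 ± 2.49 in WT libraries (SD, n = 3 each). Another region of Gli2 passed lower after TNF, with 33.8 and 27.3 reads in TNF-treated libraries, against 62.5, 68.6 and 54.1 in untreated WT libraries.

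Chromatin regulators had 31 regions at 3 weeks (14 passed higher, 12 lower), 30 at 8 weeks (1 and 17), 11 at 11 weeks (5 and 3) and 42 after TNF (5 and 34). They had medians of -0.13, -1.46, 0.99 and -1.29, against -0.12, -0.22, 0.76 and -1.08 over all regions. Dnmt1, the maintenance methyltransferase itself, held 4 of those at 3 weeks on chromosome 9. Its region from 20727651 to 20728600, 29.2 kb from the start, had 109, 116 and 123 reads in Tg197 libraries, against 62.0, 67.9 and 59.1 in WT libraries (log2 fold 0.87, SE 0.12, limma adjusted p = 0.000842). Chd1, a remodeller of active genes, passed lower at 3 weeks, with 272, 251 and 267 reads in Tg197 libraries, against 374, 345 and 333 in WT libraries. Chd7, a remodeller at enhancers, and Ehmt1, a histone H3 lysine 9 methyltransferase, passed lower at 8 weeks with 5.78 ± 0.899 and 7.62 ± 1.54 in Tg197 libraries, against 18.1 ± 2.58 and 23.0 ± 3.16 in WT libraries. After TNF Myst4, a histone acetyltransferase now named Kat6b, passed lower with 9.57 ± 4.77 in TNF-treated (n = 2) and 30.0 ± 2.78 in untreated WT libraries (SD, n = 3).

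Genes near rheumatoid arthritis risk variants had 15 regions at 3 weeks (5 passed higher, 9 lower), 20 at 8 weeks (1 and 10), 11 at 11 weeks (6 and 3) and 23 after TNF (3 and 19). In these genes the medians were -0.18, -1.19, 0.68 and -1.39, against -0.12, -0.22, 0.76 and -1.08 over all regions. Tle3, a corepressor of the Groucho family, passed lower at 3 weeks with 139 ± 12.8 in Tg197 and 207 ± 23.1 in WT libraries. Jazf1 passed lower at 8 weeks with 62.6 ± 2.16 and 106 ± 4.92, and Runx1, a factor of blood formation and of cartilage, passed higher at 11 weeks at a region 37.6 kb from the start with 23.5 ± 2.65 and 7.07 ± 5.65 (SD, n = 3 each). Cdk6, a kinase of cell cycle entry, passed lower after TNF with 3.98 and 1.24 reads in TNF-treated libraries, against 14.6, 18.3 and 16 in untreated WT libraries.

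Protocadherin and neuronal adhesion genes had 23 regions at 3 weeks (14 passed higher, 7 lower), 20 at 8 weeks (4 and 6), 14 at 11 weeks (10 and 4) and 35 after TNF (12 and 21). Their median log2 folds were 0.85, 0.13, 1.2 and -1.05, against -0.12, -0.22, 0.76 and -1.08 over all regions. The median of 0.13 at 8 weeks was the only positive one among the pathway lists of that table, against -1.09 for all gene-body regions at 20 to 100 kb. Of the 20 regions at 8 weeks 11 were gained, and 10 of the 20 did not pass. Grik1, a kainate receptor subunit, nevertheless passed lower at 8 weeks with 1.34 ± 1.33 in Tg197 and 13.1 ± 4.05 in WT libraries. Unc5d, a netrin receptor, passed higher at 11 weeks with 22.9 ± 2.2 and 7.77 ± 1.76 (SD, n = 3 each). Slit3, a secreted guidance cue, passed lower after TNF with 17.9 and 17.4 reads in TNF-treated libraries, against 43.7, 46.5 and 39.3 in untreated WT libraries.

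Capture does not measure expression, so the fibroblast label could not be checked against marker levels, and a marker gene's region says nothing of which cells were present. Synovial fibroblast markers had 3, 2, 0 and 2 regions in the tables of 3, 8 and 11 weeks and of TNF. After TNF both passed lower, when 64.1% of all regions and 75.2% of the gene-body regions did. They included Pdpn, the lining marker podoplanin, with 2.99 and 2.48 reads in TNF-treated libraries, against 18.8, 12.2 and 11.1 in untreated WT libraries. Macrophage and osteoclast markers had 2, 1, 2 and 0 regions, endothelial and mural markers 8, 2, 3 and 8, lymphocyte markers 5, 6, 3 and 2, and skeletal muscle markers 9, 8, 5 and 8. Of these, 1, 1, 4 and 4 passed higher at 3 weeks and 0, 3, 1 and 4 lower, in the order of the lists just named. At 8 weeks 0, 0, 1 and 1 passed higher and 1, 1, 3 and 2 lower. At 11 weeks 1, 2, 2 and 3 passed higher and 1, 0, 0 and 1 lower, and after TNF 0, 4, 0 and 3 passed higher and 0, 4, 2 and 5 lower. Beside these counts, 40.3% of all regions passed higher and 44.7% lower at 3 weeks, and 17.4% and 36.6% at 8 weeks. At 11 weeks the shares over all regions were 49.7% and 28.2%, and after TNF 29.8% and 64.1%.

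Regions that overlapped one of any other table numbered 239 of 2517 at 3 weeks (9.5%), 446 of 2057 at 8 weeks (21.7%), 138 of 1433 at 11 weeks (9.63%) and 502 of 3458 after TNF (14.5%). Of the 2517 at 3 weeks 47 overlapped 1 of the 1433 at 11 weeks by at least 1 bp, which is 1.87% and 3.28% of the lists. In 40 of the 47 the direction in Tg197 cells was the same, 16 gained and 24 lost at both ages. The regions gained at both had median read levels of 39.45 at 3 weeks and 18.6 at 11 weeks, and those lost at both 209 and 124.5. Between 3 and 8 weeks 83 overlapped and 29 had the same direction. Of the others, 29 were gained at 3 and lost at 8 weeks, with median levels of 27.2 and 16.2, and 25 were lost at 3 and gained at 8 weeks, with 239 and 170. Between 8 and 11 weeks 45 overlapped and 23 had the same direction.

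**Figure D4:**
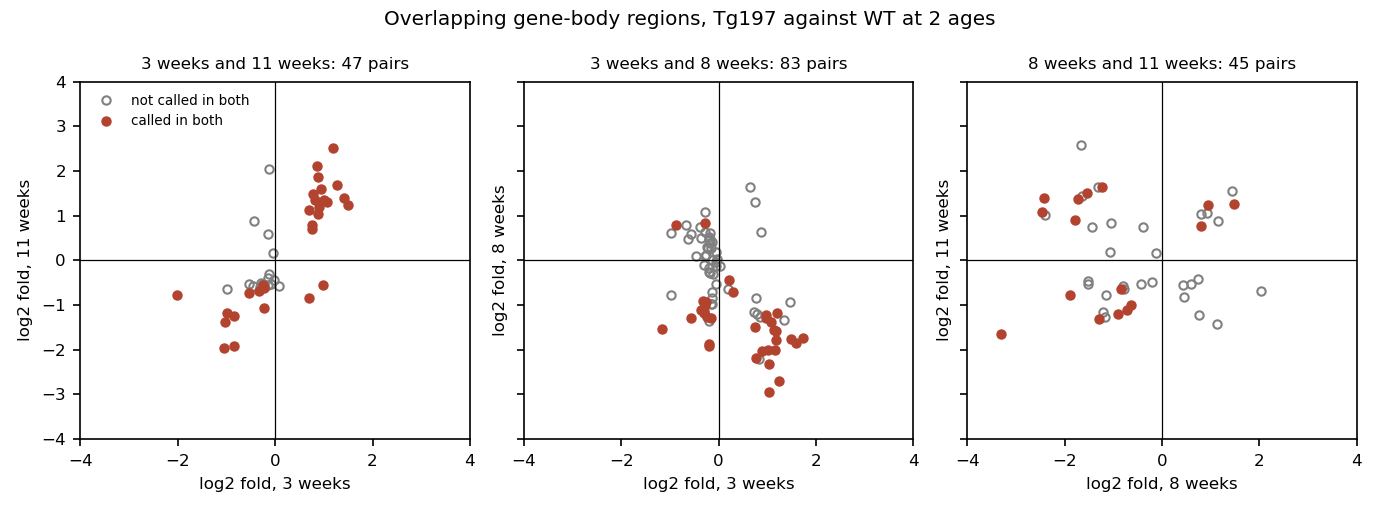
Log2 folds of Tg197 against WT (both axes, on values plus 1) for gene-body regions that overlap between 2 ages, with filled points where both ages passed limma. Points for 3 and 11 weeks lie mostly in the quadrants of the same direction (40 of 47), whereas for 3 and 8 weeks 29 of 83 do.

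The TNF table shares no libraries with those of 3 and 11 weeks. With 3 weeks 130 regions of that age overlapped, of which 49 pairs had the same direction, and with 11 weeks 56 overlapped, of which 16 did. Of the 56, 29 were gained in Tg197 cells at 11 weeks and lost after TNF. With the Tg197 table of 8 weeks the TNF table shares its WT libraries, and 346 pairs overlapped, which took in 16.7% of the Tg197 list and 9.98% of the TNF list.

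Lifr, the receptor for leukemia inhibitory factor, and Parvb, the focal adhesion protein beta-parvin, were gained at the same place at 3 and 11 weeks. The genes in this and the next paragraphs on single loci were chosen after their values were seen. The Lifr region about 28.4 to 28.7 kb from the start had 52.9, 33.9 and 46.5 reads in Tg197 libraries of 3 weeks, against 21.6, 19 and 23.9 in WT libraries, and 25.5, 16 and 36.2 in Tg197 libraries of 11 weeks, against 6.8, 11.2 and 9.74 in WT libraries. Its log2 folds were 1.00 (SE 0.24, limma adjusted p = 0.00246) and 1.35 (SE 0.39, limma adjusted p = 0.0219). Parvb, 34.6 kb from the start on chromosome 15, averaged 32.7 ± 6.91 in Tg197 and 14.3 ± 5.16 in WT libraries at 3 weeks, and 14.7 ± 5.91 and 2.23 ± 2.01 at 11 weeks (SD, n = 3 each). Both genes also held lost regions, at 8 weeks and, with higher read levels, at 3 weeks. Parvb held another at 11 weeks, 78.4 kb from the start, which passed lower with 49.1 ± 5.28 in Tg197 and 91.8 ± 10.8 in WT libraries (SD, n = 3 each).

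Cdyl, a chromodomain protein that binds repressive histone marks, went up at 3 weeks and down at 8 weeks at 1 place on chromosome 13, from 35891801. At 3 weeks it had 21.6, 47.1 and 37.6 reads in Tg197 libraries, against 5.63, 18.1 and 7.95 in WT libraries (log2 fold 1.74, SE 0.38, limma adjusted p = 0.00207). At 8 weeks it had 2.65, 3.46 and 4.41 in Tg197 libraries, against 17.8, 15.0 and 9.95 in WT libraries (log2 fold -1.74, SE 0.44, limma adjusted p = 0.0428). In the TNF table, which holds the same WT libraries in its own scaling, it had 4.98 and 3.72 in TNF-treated libraries, against 21.4, 16 and 11.1. The gene 8430419L09Rik, now named Fam234b, also passed higher at 3 and lower at 8 weeks, with 44.1 ± 16.1 in Tg197 and 14.9 ± 7.51 in WT libraries at 3 weeks, and 12.0 ± 5.81 and 48.9 ± 27.0 at 8 weeks.

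The Dnmt1 region gained at 3 weeks overlapped one gained at 11 weeks, which had 112, 80.2 and 138 reads in Tg197 libraries, against 42.1, 57.7 and 57.5 in WT libraries (log2 fold 1.03, SE 0.26, limma adjusted p = 0.0219). A region 43.2 kb from the start, with more reads, passed lower at both ages, with 346 ± 28.4 in Tg197 and 411 ± 11.8 in WT libraries at 3 weeks. At 3 weeks it overlapped another listed region, from 20714301 to 20715200, that went the other way with a deposited log2 fold of 0.39. Neither of these 2 had a deposited adjusted p under 0.05 at that age. Zc3h13, a component of the RNA methylation complex, and Trhde, a peptidase, were gained in Tg197 cells at 11 weeks and lost after TNF. Zc3h13 averaged 22.0 ± 13.2 in Tg197 and 6.63 ± 3.65 in WT libraries at 11 weeks (SD, n = 3 each), and 5.46 ± 0.714 in TNF-treated (n = 2) and 21.2 ± 6.68 in untreated WT libraries (SD, n = 3). Trhde averaged 29.8 ± 24.2 in Tg197 and 7.44 ± 2.99 in WT libraries at 11 weeks (SD, n = 3 each), with the third Tg197 library the highest.

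Col14a1, a fibril-associated collagen, was lost at 1 place, about 88.1 kb from its start, at both 8 and 11 weeks. At 8 weeks it had 10.6, 0 and 0 reads in Tg197 libraries, against 16.9, 24.0 and 24.3 in WT libraries (log2 fold -3.31, SE 0.96, limma adjusted p = 0.0428). At 11 weeks it had 5.58, 5.73 and 4.31 in Tg197 libraries, against 17.7, 19.6 and 17.5 in WT libraries (log2 fold -1.64, SE 0.38, limma adjusted p = 0.0219). The groups lay apart at both ages. The lost region of Hc at 8 weeks was also listed in the TNF table, with 1.99 and 0 reads in TNF-treated libraries, against 13.7, 11.4 and 12.3 in untreated WT libraries.

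Runx1 and Nfatc2, each with several such regions, did not move as a block across the comparisons. Runx1 had 4 regions at 8 weeks, all lost in Tg197 cells with 3 passing, and both of its regions after TNF passed lower. At 11 weeks 2 of its 4 regions passed higher and 1 lower. Nfatc2 had both regions of 3 weeks and the 1 of 11 weeks passing higher in Tg197 cells, both of 8 weeks passing lower, and 4 of its 5 regions after TNF passing lower.

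The share gained was higher in long than in short genes. In genes of 20 to 50 kb 25.4% of the regions were gained in Tg197 cells at 8 weeks, and in genes over 200 kb 41.1%. After TNF the shares were 17.4% and 34.8%. All gene-body regions of the 20 to 100 kb class, weighted to the read levels of these length classes, gave 31.6% and 30.7% at 8 weeks, and 24.0% and 23.1% after TNF. At 3 weeks the share was 42.0% in the short and 54.6% in the long genes, and at 11 weeks 56.3% and 63.5%, where the same levels gave 40.7% and 57.4%, and 55.9% and 65.3%. Medians of single libraries showed little of this at 8 weeks and after TNF: the median log2 ratio to WT in genes over 200 kb less that in genes up to 50 kb was 0.13, 0.07 and 0 in Tg197 libraries of 8 weeks and -0.03 and 0.17 in TNF-treated libraries. It was 0.55, 0.59 and 0.58 in Tg197 libraries of 3 weeks and 0.18, 0.26 and 0.13 in those of 11 weeks. The length classes were chosen after the values were seen, and the 8-week tables share their WT libraries.

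**Figure D5:**
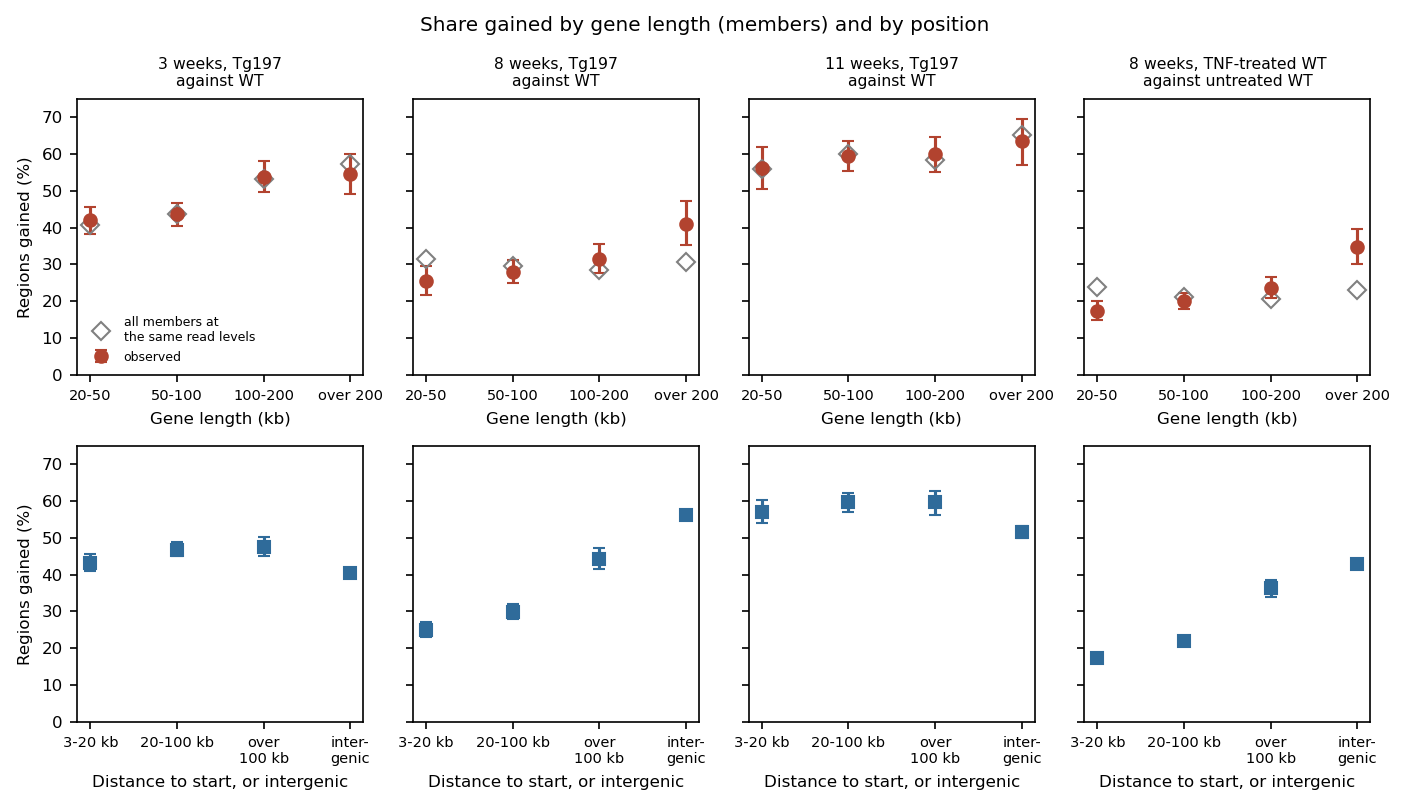
Share gained (y axis, %). The upper row shows gene-body regions 20 to 100 kb from the start by gene length (filled circles, with open diamonds for all such regions at the same read levels), and the lower row shows gene-body regions at 3 to 20 kb, at 20 to 100 kb and beyond 100 kb, and intergenic regions (squares). Bars are 95% Wilson intervals that treat regions as independent; circles depart from diamonds in the shortest and longest genes at 8 weeks and after TNF, and the squares rise from 3 to 20 kb to intergenic there.

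From 3 kb outward, position showed the same order at 8 weeks and after TNF. Of the gene-body regions at 3 to 20 kb 24.9% were gained at 8 weeks, of those at 20 to 100 kb 29.9%, of those beyond 100 kb 44.3% and of intergenic regions 56.1%. After TNF the shares were 17.3%, 22.0%, 36.2% and 42.9%. At 3 weeks they were 43.2%, 46.8%, 47.5% and 40.3%, and at 11 weeks 57.1%, 59.6%, 59.6% and 51.6%. Promoter regions, nearest the start, broke this order, with 35.8% gained at 8 weeks and 23.3% after TNF. Their shares were 47.1% at 3 weeks and 52.7% at 11 weeks. Within 20 to 100 kb, distance from the start changed the share little at 8 weeks, from 28.7% at 20 to 40 kb to 33.2% at 80 to 100 kb. By chromosome the share at 8 weeks ran from 18.6% on chromosome 4 to 45.7% on chromosome 7, and after TNF from 14.1% on chromosome 4 to 35.4% on chromosome 18. A small number of the regions, 40, 38, 14 and 52 in the tables of 3, 8 and 11 weeks and of TNF, had their centre beyond the annotated gene end.

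Regions next to the limits of 20 and 100 kb are given without a test. At 3 weeks the nearest region above 20 kb lay in Stat5b, with means of 158 in Tg197 and 203 in WT libraries, and the nearest below in Flnc, with 243 and 282. The last one within 100 kb lay in Adamts20, with 41.4 and 18, and the next in Cit, with 182 and 219. At 8 weeks these were Papss1 (95.4 in Tg197 and 124 in WT libraries), Gfm1 (201 and 152), Ankrd6 (211 and 195) and Fert2 (131 and 79.3). At 11 weeks they were 6820431F20Rik (12.3 and 31.9), Cdon (40.8 and 15.9), Acvr1 (43.2 and 18.2) and Wwc2 (80 and 45.3). After TNF they were Pold3 (12.9 in TNF-treated and 32.0 in untreated WT libraries), Pnldc1 (5.22 and 18.4), Rasa3 (18.8 and 41.6) and 4933407C03Rik (6.96 and 25.9).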

How the data were processed

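Methylated DNA was captured with the MethylMiner kit (methyl-CpG-binding protein, double elution combined) and sequenced, per the labels' protocols. Per the submitters' processing notes, which name BWA, TopHat, TopHat2, Cufflinks, Cuffdiff and mm9 with no roles, coordinates are mm9. The program that compared the groups is not given in the sources used here. Per the file headers, each region of the 4 deposited tables holds a signal, its normalized reads per library (3 libraries packed in a cell), a log2 fold change and a p-value made by the authors. Cells carry no replicate number.

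Values were tested with limma 3.58.1 (R 4.3.3), with a mean trend on log2(value + 1), over all regions of a table, with Benjamini-Hochberg adjustment at 0.05. The test was also run on simulated reads in which most regions were unchanged and none were preselected. The listed regions were preselected on the same libraries, which that check does not cover. Whole reads were recovered from the steps between low values, with a tolerance of 0.1, for at least 99.9704% of values. Each library held from 385155 to 2875554 recovered reads over the listed regions, and these count listed regions only. A region is said to lie below the counting bound if its deposited p was more than 10-fold under the exact binomial p that its recovered reads give. Wilson intervals cover counting error only. Of the 4189 gene symbols 4115 matched a RefSeq transcript, 460 under another current symbol. No sequence was printed, since no mm9 genome was used here.

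The regions and the gene lists were chosen with earlier results of these data known. Named genes are the 4 largest gains and losses per table past limma with 10 or more normalized reads as the larger group mean, the 3 genes with most regions, 2 per list, 8 genes in all 4 tables, 6 overlapping regions per pair of tables and those next to the limits. Those said to be chosen after their values were seen are extra. Alternatives were other pseudocounts, voom on recovered reads, another scaling, gene as the unit, a minimum fold, the counting bound, every deposited value as a library and leaving out each library. Some regions picked by the rule for named genes are not reported here.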

Additional observations from a re-analysis of the deposited data

Results flagged for a closer look

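Differences between ages in which every Tg197 library moved one way at one age and the opposite way at another were not tested. Over all gene-body regions at 20 to 100 kb the middle Tg197 library had a median log2 ratio to the WT mean of -0.07 at 3 weeks, -1.08 at 8 weeks and 0.67 at 11 weeks. In the 3 lowest read-level classes it was 1.07 at 3 weeks, -1.81 at 8 weeks and 1.14 at 11 weeks. The regions listed differ between ages, so these medians are over different regions. Cdyl and 8430419L09Rik are regions listed at both 3 and 8 weeks: Cdyl had a log2 fold of 1.74 at 3 weeks and -1.74 at 8 weeks, and 8430419L09Rik 1.59 and -1.86. With 3 samples a group, no formal test for an outlying sample was run.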

How the results depend on the processing

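No paired analysis was possible because the packed values carry no replicate number. With each library left out in turn, the gene-body regions passing limma numbered 1960 to 2081 (3 weeks), 0 to 1475 (8 weeks), 0 to 1078 (11 weeks) and 2295 to 3263 (TNF). Regions in the gene lists ran from 179 to 187, 0 to 153, 0 to 109 and 199 to 297, and shares gained from 46.8 to 47.4%, 29.2 to 30%, 59.3 to 59.9% and 21.7 to 22%. The shares gained could move little, since the groups did not overlap at most regions. Without Tg197 library 1 of 11 weeks 1 region passed. With a pseudocount of 0.1, 0 regions passed at 8 weeks by limma, in the lists also 0, with 1413 at an unadjusted p under 0.05, while voom called 1152. With a minimum log2 fold of 1, 588 passed at 3 weeks and 697 at 11 weeks. Without regions below the counting bound 1425 passed at 3 weeks, the share gained was 68.1% at 3 weeks and 20% after TNF, and 61.4% of genes with several regions moved one way at 3 weeks, against 48.5% with all. With the gene as the unit the share gained was 50.8% at 3 weeks, 62.3% at 11 weeks and 20.6% after TNF. Among regions past limma it was 51%, 19.6%, 69.9% and 19.6% in the order of 3, 8 and 11 weeks and TNF, and 76% of genes moved one way at 8 weeks and 63.2% at 11 weeks. With libraries scaled to 1 autosomal total it was 52.7% at 3 weeks and 19.2% after TNF. The causes of these shifts were not tested. Among the regions picked by the rule for named genes, 15 results changed sign, all of regions that had not passed. With libraries scaled to 1 autosomal total, regions of 3 weeks moved to 0.08, 0 and 0.02 in Cdc42bpb, 0.01 and 0.07 in Ccdc6 and 0.01 in Prkag2 on the log2 scale, and Ankrd6 at 8 weeks to -0.05. With single libraries left out, Cdc42bpb ran from -0.08 to 0.02 at 3 weeks and from -0.09 to 0.01 at 8 weeks, and Ccdc6 from -0.08 to 0.02, with another 0.01. Sfi1 ran from -0.13 to 1.47 and from -0.27 to 1 at 8 weeks and from -0.02 to 0.37 at 11 weeks, and Runx1 from -0.6 to 0.14 at 11 weeks. Another 785 results of these regions no longer passed, 55 newly passed and 3594 did neither. With both identical TNF-treated libraries kept, 3339 gene-body regions and 299 list regions passed. How depth limits these results was not tested.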
